A study of Mus musculus with 11 samples.

Results

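miR-221-3p and miR-222-3p (mmu-miR-221-3p and mmu-miR-222-3p in the files) were followed in cardiac macrophages from the uninjured mouse heart and from 3 times after injury. The pair was taken by name, 2 of the 1247 microRNAs (miRNAs) on the array, over all 11 arrays. The rule itself uses no level, but the pair was chosen with earlier results of these data known. A miRNA is a short RNA that pairs with messenger RNAs, mainly through its seed (bases 2 to 8), and lowers their translation and stability. miR-221 and miR-222 are processed from hairpins that lie next to each other and are made from a shared transcript. They are best known for repressing Cdkn1b and Cdkn1c, inhibitors of cyclin-dependent kinases that hold cells out of division, and the stem cell factor receptor Kit. Both are abundant in endothelial and vascular smooth muscle cells, and in mouse macrophages they rise during prolonged exposure to bacterial lipopolysaccharide, where they repress the chromatin remodeller Smarca4 (Brg1).

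The RefSeq mouse assembly GRCm38.p6 places both genes on the minus strand of chromosome X, with 504 bases between the hairpins. The mature sequences are shown because the seed, in capitals, is what the pair shares.
miR-221-3p: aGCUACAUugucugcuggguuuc
miR-222-3p: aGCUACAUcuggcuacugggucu
The first mature sequence lies at chrX:19146307-19146329 and the second at chrX:19146901-19146923. They begin with the same 8 bases, and 11 of 23 positions are identical when they are set side by side from the 5′ end without gaps. The complement of the seed, read 5′ to 3′, is AUGUAGC. Among the 1738 mature miRNAs of the RefSeq table the seed occurs in 3, the pair and miR-1928 of chromosome 1 (chr1:74206562-74206578), which shares its first 10 bases with miR-221-3p.
miR-1928: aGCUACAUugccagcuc
The hairpins, with the 3p arm in capitals, show where the measured strand lies in its precursor (chrX:19146294-19146388 for Mir221 and chrX:19146893-19146971 for Mir222).
Mir221: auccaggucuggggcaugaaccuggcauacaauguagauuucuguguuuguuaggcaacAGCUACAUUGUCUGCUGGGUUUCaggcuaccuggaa
Mir222: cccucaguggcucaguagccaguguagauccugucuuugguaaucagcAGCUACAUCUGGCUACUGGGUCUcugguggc

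The arrays were Agilent mouse miRNA arrays, each with Cy3-labelled total RNA of GFP-positive macrophages from hearts of Cx3cr1GFP/+ mice aged 2 to 3 months, in which GFP is expressed from one allele of the fractalkine receptor gene. That allele was carried by all groups, controls included. Hearts that had no surgery (day 0) gave Ly6Clow/CX3CR1high cells for 2 arrays. Cryoinjury, in which part of the heart wall is frozen to model infarction, preceded the collection of Ly6Clow/CX3CR1high cells for 3 arrays at day 7 and 3 at day 30. Ly6Chigh/CX3CR1low cells were taken for 3 arrays at day 3 after cryoinjury and on no other day, so in every comparison that involves day 3 the stage and the cell population cannot be told apart. The labels call the replicates independent biological ones and do not say how many animals each holds.

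Brightness differed between the arrays, and the pair has to be read against it. The 75th percentile, taken over the 126 miRNAs that all arrays detected, ran from 55.7 to 163 scanner units on day 0, from 805 to 1607 on day 3, from 114 to 323 on day 7 and from 1453 to 2304 on day 30. Signals were therefore divided by that percentile and given as log2. On this scale the median change of those 126 miRNAs relative to the uninjured heart was -0.77 by day 3, -0.21 by day 7 and -1.06 by day 30. Relative to day 3 it was 0.63 by day 7 and -0.49 by day 30, and between days 30 and 7 it was -0.57. Day 30 replicates 2 and 3 were nearly identical (median absolute log2 difference 0.06, against 0.25 to 1.18 in the other 9 pairs of replicates) and were counted as 1 sample, which left 10 samples. As to cell identity, the haematopoietic miR-223-3p and miR-142a-3p were detected on all 11 arrays and miR-142a-5p on 7, on neither array at day 0. The cardiomyocyte miR-133a-3p and miR-133b-3p and the endothelial miR-126a-3p were also detected on all 11, so detection alone does not tell the cell types apart.

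miR-221-3p was detected on 10 of 11 arrays. Its signal was 11.2 and 1.44 scanner units at day 0 (the second not detected), 183, 118 and 287 at day 3, 42.2, 11.9 and 37.8 at day 7, and 222.4, 105 and 123 at day 30. The arrays of days 3 and 30 were the bright ones and all lay above those of days 0 and 7. Where it was detected, the scanner's error was 7.37% to 15.1% of the signal.

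miR-222-3p was detected on 9 of 11 arrays, all but those of the uninjured heart. Its signal was 1.52 and 1.404 scanner units at day 0 (not detected), 180.0, 66.4 and 162 at day 3, 32.6, 9.23 and 27.6 at day 7, and 75.5, 38.9 and 43.6 at day 30. All 3 of its day 30 signals were below 2 of the 3 day 3 signals, although the unscaled median change of the 126 always detected miRNAs was 0.27 upward between these days. The other strands of the hairpins, miR-221-5p and miR-222-5p, were detected on 0 of 11 arrays (highest signals 1.97 and 1.61), and so was miR-1928 (1.97).

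**Figure D1:**
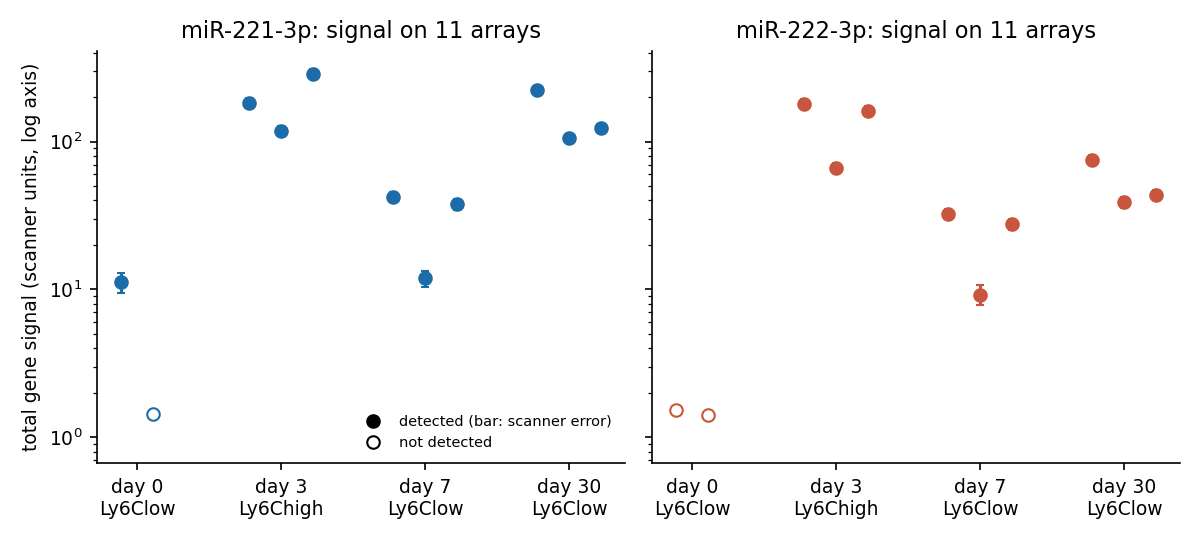
Total gene signal of miR-221-3p and miR-222-3p in scanner units on a log axis, 1 point per array in the 4 groups, with the scanner's error as bars and open points where the miRNA was not detected. The open points are day 0 replicate 2 for miR-221-3p and both day 0 arrays for miR-222-3p, and every signal of days 3 and 30 lies above those of day 7 of the same miRNA.

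After scaling, miR-221-3p stood at -3.87 and -5.28 at day 0, at -2.39, -2.77 and -2.49 at day 3, at -2.94, -3.26 and -2.78 at day 7, and at -3.37 and -3.81 in the 2 samples of day 30. The order of group means was day 3 (-2.55 ± 0.20, SD, n = 3), day 7 (-2.99 ± 0.24, n = 3), day 30 (-3.59 ± 0.31, n = 2) and day 0 (-4.57 ± 0.99, n = 2). The day 3 samples lay just above those of day 7, and no 2 groups that follow each other in this order differed beyond the test. The second day 0 value is background on the dimmest array, where the lowest detected signal of any miRNA, -5.12, is taken as its upper limit.

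miR-222-3p stood at -6.75 and -5.31 at day 0, both of them background, at -2.42, -3.60 and -3.31 at day 3, at -3.31, -3.62 and -3.23 at day 7 and at -4.93 and -5.28 at day 30. Days 3 and 7 overlapped, whereas both day 30 samples lay more than 1 log2 unit below every sample of those days. The means were -6.03 ± 1.02 (SD, n = 2) at day 0, -3.11 ± 0.62 (SD, n = 3) at day 3, -3.39 ± 0.21 (n = 3) at day 7 and -5.10 ± 0.24 (n = 2) at day 30. In its order of day 3, day 7, day 30 and day 0, the step between days 7 and 30 was the one that passed the test.

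Both members differed among the 4 groups in limma's F test over 369 miRNAs (adjusted p = 0.0114 for miR-221-3p and 0.00128 for miR-222-3p). This is the usual outcome here, as 78.9% of the tested miRNAs passed it. In the 6 comparisons that follow, the later group is set over the earlier one, and comparisons with day 0 share its 2 arrays.

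**Figure D2:**
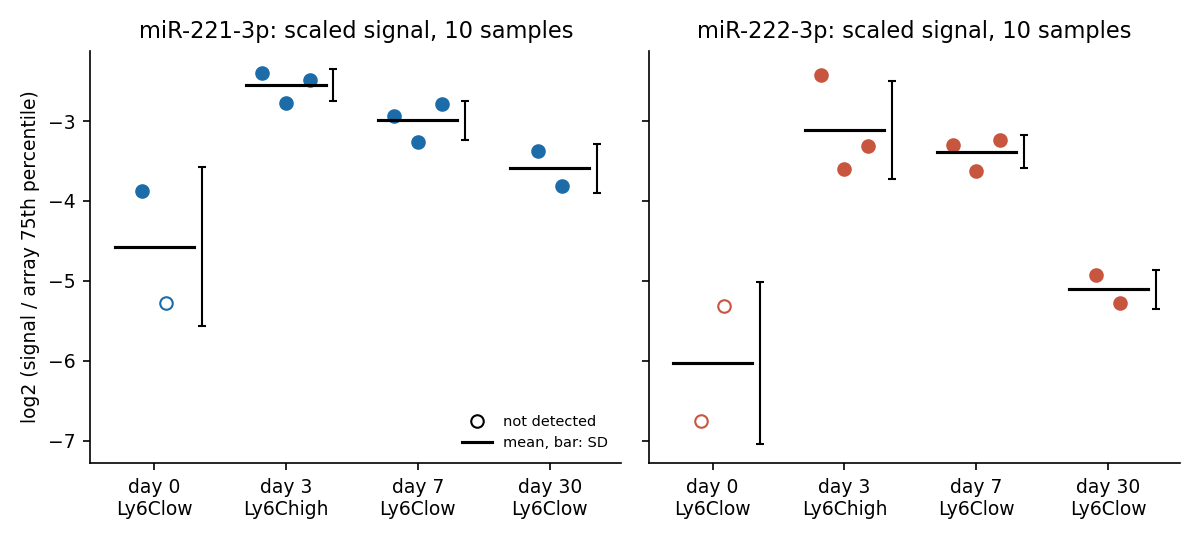
Log2 of signal over the array's 75th percentile for miR-221-3p and miR-222-3p, 1 point per sample (2 at day 0, 3 at day 3, 3 at day 7, 2 at day 30), with the group mean as a line, the SD as a bar and open points where not detected. miR-221-3p steps down over days 3, 7 and 30 with means of -2.55, -2.99 and -3.59, while miR-222-3p holds at -3.11 and -3.39 and stands at -5.10 at day 30.

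Both miRNAs were higher in Ly6Chigh/CX3CR1low macrophages of day 3 than in Ly6Clow/CX3CR1high macrophages of the uninjured heart. miR-221-3p averaged -2.55 at day 3 and -4.57 at day 0, a log2 change of 2.02 (SE 0.48, 95% interval 0.99 to 3.05, limma adjusted p = 0.00487), or 4.06-fold. With the undetected day 0 array at the lowest signal detected on it, the difference was 3.84-fold. miR-222-3p, which had no detected signal at day 0, was at least 6.78-fold higher at day 3 (limma adjusted p = 0.00127), and at least 11.5-fold and 4.01-fold higher when set against day 0 replicates 1 and 2 alone. Of 369 tested miRNAs 55.3% were called in this comparison, 16.3% as higher and 39% as lower, and the groups did not overlap for 65.6%. The lower calls include miRNAs not detected at day 0, such as miR-32-5p, for which no fall can be read. Relative to the median change of the 126 always detected miRNAs, that of miR-221-3p was 2.79.

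The day 3 arrays were also the brighter ones, as given above. With brightness as a covariate miR-221-3p lost its call (0.19, adjusted p = 0.933), while miR-222-3p kept it (3.75, adjusted p = 0.0397), and without day 0 replicate 2 the change of miR-221-3p was 1.32 (adjusted p = 0.0311).

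Ly6Clow/CX3CR1high macrophages at day 7 belong to the same sorted population as those of the uninjured heart, and here miR-222-3p was the one to pass. It was at least 5.60-fold higher at day 7 than at day 0 (limma adjusted p = 0.0227), at least 9.47-fold and 3.31-fold against the 2 day 0 arrays taken alone. Its fitted change had the 2nd lowest p of the 369 tested miRNAs. miR-221-3p averaged -2.99 at day 7 and -4.57 at day 0, a change of 1.58 (SE 0.48, 95% interval 0.55 to 2.61) that missed the threshold (limma adjusted p = 0.0983). In this comparison 3.79% of tested miRNAs were called, 3.25% as higher and 0.542% as lower, and the groups did not overlap for 19.5%. Both members lay without overlap above day 0.

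Both adjusted p-values lay near the threshold. miR-222-3p lost its call with only these 2 groups in the fit (change 2.64, adjusted p = 0.150) and when any one of 4 samples was left out, replicate 2 (adjusted p = 0.0553) or 3 (0.0582) of day 3, replicate 3 of day 7 (0.0750) or replicate 1 of day 30 (0.0658). Its change was 2.57 without the day 7 sample and 2.64 without any of the other 3, which are outside the 2 groups, so that the adjusted p moved and the size of the change hardly did. For its part miR-221-3p passed with the slide as a block (adjusted p = 0.0403) and without day 7 replicate 2. It also passed without filtering, but there 1011 of 1247 miRNAs were called, although 852 were detected on no array. Without day 0 replicate 1, which leaves 1 array at day 0, its change was 2.29.

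At day 30 neither member passed the test against the uninjured heart. miR-221-3p averaged -3.59 at day 30 and -4.57 at day 0 (change 0.98, SE 0.52, 95% interval -0.15 to 2.11, limma adjusted p = 0.121). miR-222-3p was detected on all 3 day 30 arrays and on neither day 0 array, which sets it at least 1.70-fold higher, but its fitted change of 0.93 (SE 0.57, 95% interval -0.30 to 2.16) did not pass (limma adjusted p = 0.177). Against the 2 day 0 arrays taken alone the bounds were 2.88-fold and 1.01-fold, so its scaled day 30 level stood barely above the limit taken for day 0 replicate 2, the dimmest array. Unscaled, its signals at day 30 were 75.5, 38.9 and 43.6 scanner units, and its undetected signal on that array was 1.404. Of the tested miRNAs 56.4% were called, 8.94% as higher and 47.4% as lower, and the groups did not overlap for 78.3%. The lower calls again include miRNAs not detected at day 0. In this comparison the median of the always detected miRNAs was -1.06, and relative to it miR-221-3p stood at 2.05. With quantile normalization (1.65, adjusted p = 0.00877) and in the authors' deposited table (1.55, limma adjusted p = 0.0131) miR-222-3p did pass as higher, as both did without scaling. Under the brightness covariate the change of miR-221-3p was -1.29 (adjusted p = 0.432). Both changes depended on which day 0 array was kept. They were 1.68 for miR-221-3p and 0.21 for miR-222-3p without day 0 replicate 1, and 0.28 and 1.65 without day 0 replicate 2.

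Within the injured heart, days 7 and 3 could not be told apart by either member. miR-221-3p averaged -2.99 at day 7 and -2.55 at day 3 (change -0.44, 95% interval -1.36 to 0.48, limma adjusted p = 0.388). miR-222-3p averaged -3.39 at day 7 and -3.11 at day 3 (change -0.28, 95% interval -1.28 to 0.73, limma adjusted p = 0.620). The intervals leave room for a difference of more than 2-fold in either member. Of the tested miRNAs 37.1% passed in this comparison, 21.1% as higher and 16% as lower, and the groups did not overlap for 64.2%, among them miR-221-3p. Without scaling both members passed as lower at day 7 (-2.78 and -2.62), and without day 3 replicate 1 the change of miR-222-3p was 0.07.

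By day 30 miR-222-3p had fallen. It averaged -5.10 at day 30 and -3.11 at day 3, a change of -1.99 (SE 0.52, 95% interval -3.12 to -0.87, limma adjusted p = 0.0135), or 3.98-fold lower. Against day 7, with a mean of -3.39, it changed by -1.72 (SE 0.52, 95% interval -2.84 to -0.59, limma adjusted p = 0.0159), or 3.29-fold lower, a step that turned to 1.46 without scaling. Relative to the always detected miRNAs these changes were smaller, -1.50 against day 3 and -1.15 against day 7. Against day 3, 30.9% of tested miRNAs were called, 9.76% as higher and 21.1% as lower, and 74.5% did not overlap. Against day 7 the calls made up 47.7%, of which 13.6% were higher and 34.1% lower, and 71.3% did not overlap. Within the 2 slides the array layout gives, the changes of miR-222-3p were -2.07 and -1.68 against day 3 and -1.66 and -1.65 against day 7.

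miR-221-3p moved the same way by less and did not pass. It averaged -3.59 at day 30 and -2.55 at day 3 (change -1.04, 95% interval -2.07 to -0.01, limma adjusted p = 0.120). Against day 7, with a mean of -2.99, its change was -0.60 (95% interval -1.63 to 0.43, limma adjusted p = 0.315), which was that of the median always detected miRNA (-0.57). The change against day 3 passed with 11 separate arrays (-1.11, adjusted p = 0.0360), with only those 2 groups in the fit, with the brightness covariate and without either day 0 array.

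Scaling decides the sign of the step between days 7 and 30. Without it miR-221-3p was 2.58 higher (adjusted p = 0.0216) and miR-222-3p 1.46 higher (adjusted p = 0.0711) at day 30 than at day 7, and with the percentile taken over all miRNAs they changed by 1.02 and -0.09. The call of miR-222-3p against day 7 also ended with the brightness covariate (-0.96, adjusted p = 0.538) and without day 7 replicate 3 or day 30 replicate 1 (adjusted p = 0.0515 and 0.0670). Against day 3 its call ended without scaling (-1.16, adjusted p = 0.186), with the percentile over all miRNAs (-1.59, adjusted p = 0.0660) and without day 3 replicate 1 or day 30 replicate 1 (adjusted p = 0.0655 and 0.0914), the sign staying negative in each.

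**Figure D3:**
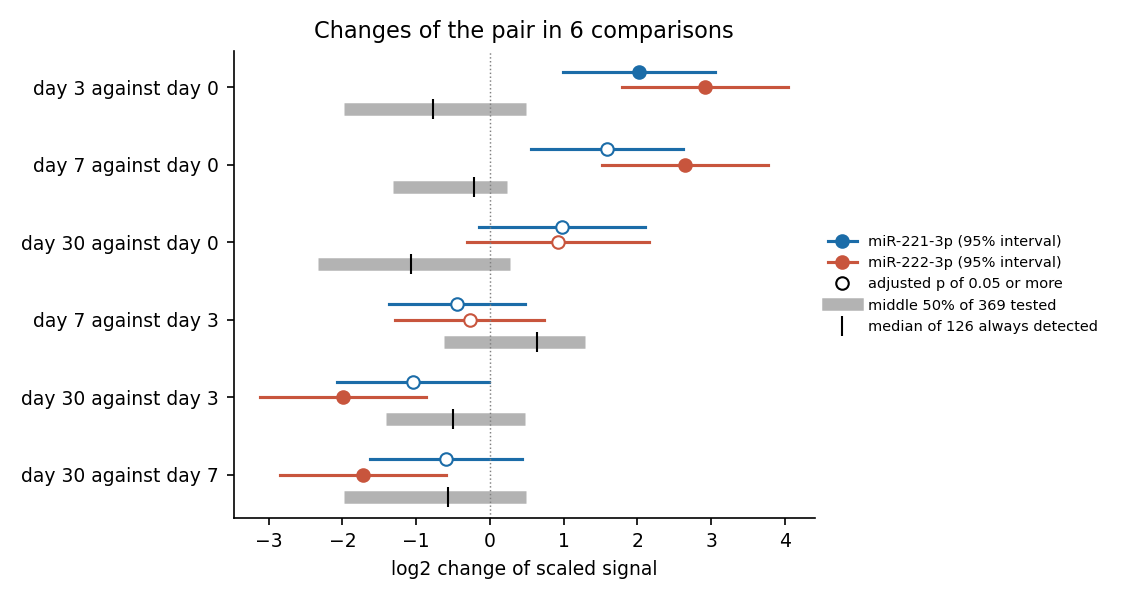
Log2 change of scaled signal with its 95% interval for miR-221-3p and miR-222-3p in 6 comparisons (filled where the limma adjusted p was under 0.05), beside the middle 50% of the 369 tested miRNAs as a grey bar and the median of the 126 always detected miRNAs as a tick. Both points lie above the grey bar in the 3 comparisons with day 0, and at day 30 against day 7 miR-221-3p (-0.60) sits on the tick (-0.57) while miR-222-3p lies at -1.72.

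The difference between the 2 signals on 1 array does not depend on any scaling factor, and it tells whether the members changed by unequal amounts. The log2 of miR-221-3p over miR-222-3p was 0.02, 0.83 and 0.83 at day 3, 0.37, 0.36 and 0.45 at day 7 and 1.56, 1.43 and 1.49 at day 30. Every day 30 array lay above all 6 arrays of days 3 and 7, and day 3 replicate 1, where the signals were 183 and 180.0, stood apart at the low end. The group means were 0.56 ± 0.47 (SD, n = 3) at day 3, 0.40 ± 0.05 (n = 3) at day 7 and 1.51 ± 0.07 (n = 2) at day 30. Across these 8 samples the groups differed by a two-sided exact permutation test of the between-group sum of squares (p = 0.0143, 560 arrangements, smallest possible p 0.00357). At day 30 miR-222-3p had thus dropped relative to miR-221-3p by 0.95 against day 3 and by 1.12 against day 7.

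The exact p moved with the setting. With permutation within slides the exact p was 0.0667, in the authors' deposited table, whose columns were not scaled by a constant, 0.193, and without single samples 0.00952 to 0.114, the highest without day 30 replicate 1. The exact p was 0.0571 or more without replicate 2 or 3 of day 3, any replicate of day 7 or replicate 1 of day 30, which also left fewer arrangements, 210 or 140 against 560. When any of these samples was left out, the differences themselves hardly moved. Day 30 minus day 7 was 1.07 to 1.14 and day 30 minus day 3 was 0.90 to 1.09. In the authors' table both were smaller, 0.65 and 0.63 in that order. Without day 3 replicate 1, day 30 minus day 3 was 0.68.

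**Figure D4:**
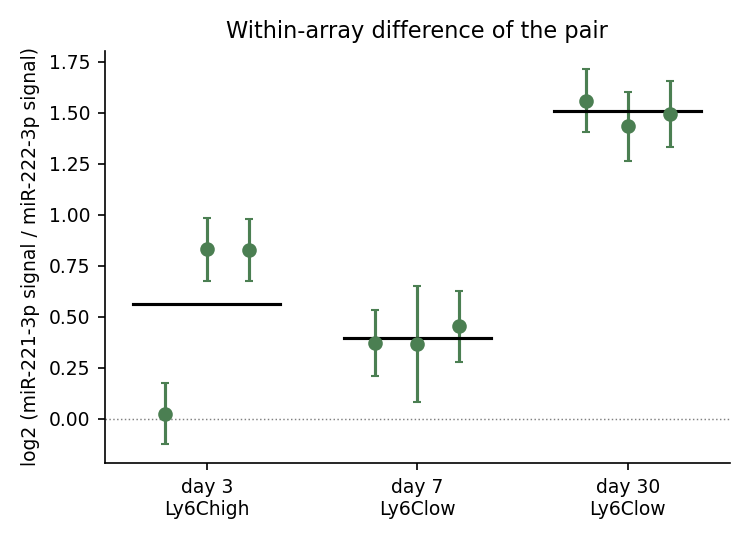
Log2 of miR-221-3p signal over miR-222-3p signal on each of the 9 arrays of days 3, 7 and 30, with the scanner's error of the ratio as bars and the mean over samples as a line (replicates 2 and 3 of day 30 count as 1 sample). The 3 day 30 arrays sit between 1.43 and 1.56, and the 6 others at 0.83 or lower.

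Profiles most like those of the pair were ranked among the other 196 miRNAs detected on at least 9 arrays, by Pearson correlation of scaled log2 signal over the 10 samples. These coefficients are descriptions, since all points share the array's brightness and scaling. Closest to miR-221-3p were miR-140-3p (r = 0.91), miR-181b-5p (0.87), the hypoxia-induced miR-210-3p (0.84), miR-361-5p (0.81) and miR-425-5p (0.79). Closest to miR-222-3p were miR-155-5p (r = 0.89), which Toll-like receptor ligands induce in macrophages, miR-10a-5p (0.88), miR-1897-5p (0.87), miR-1982-5p (0.84) and miR-680 (0.83). Of these 5 all but miR-10a-5p were, like miR-222-3p, detected on 9 arrays and on neither of day 0, so their likeness includes shared background of the same 2 dim arrays. The members correlated with each other at r = 0.76 over the 10 samples (miR-222-3p at rank 9 for miR-221-3p, and miR-221-3p at rank 11 for miR-222-3p), and at r = 0.91 over the 8 samples of days 3, 7 and 30, where both were detected.

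Of these, 4 show how the profiles ran. At days 0, 3, 7 and 30, miR-140-3p averaged -2.99, -1.54, -2.33 and -2.39, and miR-210-3p -5.10, -2.73, -4.03 and -4.05. Each peaked at day 3 with days 7 and 30 nearly level. miR-155-5p averaged -6.05, -4.45, -5.07 and -5.31, the day 0 values being background as for miR-222-3p. miR-10a-5p averaged -4.32, -1.96, -2.06 and -2.62, high at both day 3 and day 7.

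Other miRNAs that repress Cip/Kip inhibitors, as the pair does, come largely from the miR-17 family and miR-25 family. Of the 11 on this list 10 were tested. At day 3 against day 0, 5 were called higher and 2 lower (list median 0.93, against -0.79 over all 369), beside 16.3% and 39% of all tested miRNAs. Those that rose included miR-93-5p (2.48, limma adjusted p = 0.000987) and miR-25-3p (2.05, adjusted p = 0.00273), and miR-181a-5p fell by 1.29 (adjusted p = 0.0219). The other lower call was miR-32-5p, detected on no array of either day, so no fall can be read from it. At day 7 none of the 10 passed in either direction against day 0 (median 0.03, against -0.51), where miR-222-3p did. With 3.79% of all tested miRNAs called there, this is no result about the list. In the day 30 comparison with day 0, 3 were called higher and 1 lower (median 0.21, against -1.37, with 8.94% and 47.4% of all tested called). The lower call was again miR-32-5p, here detected on 2 of 3 day 30 arrays and neither day 0 array, so no fall can be read from it. Against day 3, 5 fell and 0 rose at day 7 (median -1.404, against 0.61, with 16% and 21.1% of all tested called lower and higher), among them miR-20a-5p (fell by 1.87, adjusted p = 0.00365). At day 30 against day 3, 2 fell and 0 rose (-0.15, against -0.41, with 21.1% and 9.76% of all tested), which is near those shares and no result about the list. The 2 were miR-25-3p (fell by 2.14, adjusted p = 0.00247) and miR-93-5p (fell by 1.86, adjusted p = 0.00566). Against day 7, 3 rose at day 30 and 0 fell (0.05, against -0.68, with 13.6% and 34.1% of all tested), among them miR-106b-5p (2.47, adjusted p = 0.00521) and miR-20a-5p (1.75, adjusted p = 0.00518), the step at which miR-222-3p fell. The difference between the list and miR-222-3p was not tested.

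miRNAs that answer inflammatory signals in macrophages formed the second list, with 9 of 12 tested. At day 3 against day 0, 2 rose and 4 fell (median 0.07, against -0.79 over all tested), beside 16.3% and 39% called over all tested miRNAs. All 4 that fell were detected at day 0, whereas the 39% includes miRNAs that were not. The counts and shares are thus not like for like, and no result about the list is drawn from them. miR-21a-5p, induced in many injury settings, rose by 3.47 (limma adjusted p = 0.000149) and miR-155-5p rose at least 2.68-fold (adjusted p = 0.0188). miR-146a-5p, a brake on NF-kappaB signalling, fell by 4.59 (adjusted p = 0.000357) and miR-125a-5p fell by 4.44 (adjusted p = 7.44e-05). At day 7 against day 0, miR-21a-5p alone rose among the 9 (1.65, limma adjusted p = 0.0393, list median -0.68, against -0.51). Of all tested miRNAs 3.25% were called higher there and 0.542% lower. At day 30 against day 0, 1 was called higher and 2 lower (list median 0.74, against -1.37, with 8.94% and 47.4% of all tested called). miR-21a-5p rose by 2.86 (adjusted p = 0.000982), miR-125a-5p fell by 1.95 (adjusted p = 0.0077), and miR-132-3p was not detected at day 0. Against day 3, 4 rose and 2 fell at day 7 (0.82, against 0.61, with 21.1% and 16% of all tested), and 4 rose and 1 fell at day 30 (1.198, against -0.41, with 9.76% and 21.1% of all tested), among them miR-146a-5p (5.33, adjusted p = 0.000157) as higher and miR-132-3p (fell by 3.57, adjusted p = 0.000298) as lower. At day 30 against day 7, 3 rose and 1 fell (0.37, against -0.68, with 13.6% and 34.1% of all tested). miR-155-5p, whose profile was closest to that of miR-222-3p, did not pass at day 30 against day 3 (-0.86, adjusted p = 0.205) or day 7 (-0.25, adjusted p = 0.712).

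Because the pair is abundant in endothelium and smooth muscle, markers of other cells are given beside it as summed scaled signal of the detected members of each list. Endothelial markers (1 of 2 detected on all arrays, miR-126a-3p) summed from 0.0647 to 0.417 on day 0, from 0.306 to 0.402 on day 3, from 0.287 to 0.342 on day 7 and from 0.248 to 0.266 on day 30. miR-126a-3p and miR-126a-5p gave 0 calls in which the earlier group had detected the miRNA. Fibroblast and smooth muscle markers summed from 0 to 0.0312 on day 0, from 0.0820 to 0.112 on day 3, from 0.165 to 0.412 on day 7 and from 0.195 to 0.212 on day 30. Of its 5 members miR-145a-5p was detected on no array, and miR-143-3p on no array of days 0 and 7. At day 7 against day 0, where miR-222-3p rose, 2 of the list's 4 tested members rose too, beside 3.25% of all tested miRNAs called higher. These were miR-199a-3p (2.09, limma adjusted p = 0.0227) and miR-214-3p (at least 5.46-fold, adjusted p = 0.0393). Only 1 of 2 day 0 arrays detected miR-199a-3p, so its changes against day 0 rest partly on background. At day 30 against day 7 miR-214-3p fell by 3.09 (adjusted p = 0.00175). miR-199a-3p was higher at day 30 than at day 3 (1.18, adjusted p = 0.0459) and than at day 0 (2.47, adjusted p = 0.00168), and at day 30 against day 7 the changes of miR-199a-3p (0.39), miR-143-3p (0.74) and miR-199a-5p (-0.34) did not pass. The part of these cells in the level of the pair was not tested, and in bulk RNA fewer cells of a type and less RNA per cell cannot be told apart.

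The other marker lists ran with the pair in some comparisons and against it in others. Cardiomyocyte markers summed from 0.101 to 0.164 on day 0 and from 0.0158 to 0.0381 on day 3. Their sums ran from 0.0698 to 0.120 on day 7 and from 0.0526 to 0.0773 on day 30. miR-208a-3p, miR-208b-3p and miR-499-5p were detected on no array. At day 3 against day 0, where the pair was higher, 2 of 3 tested members were lower, beside 39% of all tested miRNAs. Both were detected at day 0, whereas that share includes miRNAs that were not. From the same list, at day 30 against day 7, miR-133a-3p (fell by 1.46, limma adjusted p = 0.0143) and miR-133b-3p (fell by 1.36, adjusted p = 0.0237) fell as miR-222-3p did. miR-1a-3p rose (1.88, adjusted p = 0.0390), but only 1 of 3 day 7 arrays detected it, so the size rests partly on background. Of all tested miRNAs 34.1% were called lower and 13.6% higher there. Leukocyte and myeloid markers summed from 3.90 to 7.16 on day 0 and from 14.2 to 17.9 on day 3. Their sums ran from 2.38 to 3.58 on day 7 and from 7.94 to 9.33 on day 30. All 3 rose at day 3 against day 0 along with the pair, beside 16.3% of all tested miRNAs. All 3 were lower at day 7 than at day 3, beside 16% of all tested miRNAs, where neither member of the pair passed. At day 30 against day 7 all 3 of them rose, beside 13.6% of all tested miRNAs, while miR-222-3p fell. One of them, miR-142a-5p, was detected on neither day 0 array and on 1 of 3 day 7 arrays, so the size of its changes rests partly on background. The erythroid miR-451a stood at 0 on day 0, from 0.0288 to 0.0564 on day 3, from 0 to 0.0104 on day 7 and from 0.0815 to 0.106 on day 30, miR-144-3p and miR-144-5p being detected on no array. miR-451a was lower at day 7 than at day 3 (fell by 2.38, adjusted p = 0.00355). At day 30 against day 7, where miR-222-3p fell, it was higher (3.43, adjusted p = 0.000513), with 1 of 3 day 7 arrays detecting it. The lymphocyte miR-150-5p stood at 0 on day 0, from 0.0145 to 0.0384 on day 3, from 0.0243 to 0.0659 on day 7 and from 0.00455 to 0.00647 on day 30. It was lower at day 30 than at day 3 (fell by 1.99, adjusted p = 0.0289) and day 7 (fell by 2.69, adjusted p = 0.0033), as miR-222-3p was. Of all tested miRNAs 21.1% and 34.1% were called lower in these comparisons. Whether these cells bear on the pair was not tested.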

How the data were processed

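Cy3-labelled RNA was hybridised to Agilent arrays, 1 per sample, and read with Agilent Feature Extraction, per the submitters' processing notes, which state no version. Per the file headers, the deposited scanner files hold total gene signal and its error as intensity on a linear scale, with a flag for detection. They cover 1247 miRNAs beside 21 controls. The deposited authors' table holds normalized log2 values of 317 miRNAs, with a median of 4.46 in every column. Within each array they ranked the miRNAs as the scanner signals did.

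Signals were divided by the array's 75th percentile over 126 miRNAs detected on all arrays and raised to a floor (log2 of -8.53, the median over arrays of the lowest detected signal). The 369 miRNAs detected on at least 2 arrays were fitted with limma 3.58.1 in R 4.3.3, all groups in 1 model with 6 residual degrees of freedom, with a Benjamini-Hochberg adjusted p under 0.05 as the threshold. The p-values set each change against the spread between these samples, which limma estimates per miRNA over all 4 groups and moderates over the 369. For the pair that spread takes in the background values of day 0 (SD 0.99 and 1.02), also in comparisons without day 0. For a miRNA undetected in a group, bounds take the higher of its own signal and the array's lowest detected signal. Day 30 replicates 2 and 3 were averaged: the median of their squared difference was 0.21 times that expected from the scanner's error (3.03 to 39.0 in 9 other pairs), and the mean 1.65 times (2.82 to 44.4). The array layout gives 2 slides. The fit was tested on simulated data. The files name no genome build. Named miRNAs were the pair, its other arms and seed relatives, called members of the lists (up to 4 a list and comparison) and the 5 nearest profiles. miR-106a-5p of the Cip/Kip list was not analysed here. The members, lists and rules were chosen with earlier results of these data known. Alternatives changed scaling, floor, filter, blocks, covariates, table and samples. The number of arrays limits the precision.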

Additional observations from a re-analysis of the deposited data

How the results depend on the processing

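Of the pair's results, the rise of miR-222-3p at day 3 against day 0 and both F tests kept their side of the threshold under every alternative tried, and that of miR-221-3p at day 3 did so except with the brightness covariate (0.19). miR-222-3p at day 7 against day 0 lost its call with only the 2 groups in the fit (2.64). There miR-221-3p gained one with the slide as a block (1.48) and without a filter (1.58), where 1011 of 1247 miRNAs were called. At day 30 against day 0, miR-221-3p and miR-222-3p passed with the all-miRNA percentile (3.85 and 3.71) and unscaled (5.04 and 4.75), miR-222-3p also with quantile normalization (1.65) and in the authors' table (1.55), and miR-221-3p turned to -1.29 with brightness. At day 7 against day 3 both passed without scaling (-2.78 and -2.62), and miR-221-3p turned to 0.79 with brightness. At day 30 against day 3, miR-221-3p passed with 11 separate arrays (-1.11), brightness (-1.48) and only the 2 groups (-1.04), and miR-222-3p lost its call with the all-miRNA percentile (-1.59) and unscaled (-1.16). At day 30 against day 7, miR-221-3p turned to 1.02 and 2.58 under those 2 scalings and miR-222-3p changed by -0.095 and 1.46, and by -0.96 with brightness. The exact p of the within-array difference was 0.0667 within slides and 0.193 in the authors' table. The causes were not tested.

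Leaving out 1 sample gave 0.88 to 2.29 (miR-221-3p) and 1.92 to 3.36 (miR-222-3p) at day 7 against day 0, 0.28 to 1.68 and 0.21 to 1.65 at day 30 against day 0, -0.52 to 0.070 for miR-222-3p at day 7 against day 3, -1.26 to -0.96 and -2.24 to -1.65 at day 30 against day 3, -1.89 to -1.64 for miR-222-3p at day 30 against day 7, and an exact p of 0.00952 to 0.114 for the difference.

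Samples with the same replicate number deviated together in some pairs of days and not in others (6 of 15 correlations above 0.1, range -0.25 to 0.50). The highest were between days 0 and 7, 0.47 for replicate 1 and 0.50 for replicate 2. With the replicate block and 11 separate arrays miR-221-3p at day 30 against day 3 passed (-1.11, limma adjusted p = 0.0229), as it did without the block, and no other call of the pair changed.

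Counts of called miRNAs ranged, over the alternatives that kept all samples, at 68 to 1110 (204 in the model reported) for day 3 against day 0, 0 to 1011 (14) for day 7 against day 0, 0 to 1109 (208) for day 30 against day 0, 58 to 790 (137) for day 7 against day 3, 53 to 201 (114) for day 30 against day 3 and 13 to 244 (176) for day 30 against day 7. The highest of the first 4 came without a filter. The 0 counts by limma came with only the 2 groups (24 at an unadjusted p under 0.05) and with brightness (75). Leaving out 1 sample gave 128 to 240, 0 to 169, 102 to 263, 82 to 220, 29 to 160 and 110 to 208 in the same order. The highest of the first 3 came with replicate 1 of day 0 left out and those of the others with either day 0 replicate left out. The lowest came with replicate 2 of day 0 left out for the first, replicate 3 of day 3 for the fourth and replicate 1 of day 30 for the last 2 and day 30 against day 0. Here limma's 0 counts came when replicate 2 or 3 of day 3, replicate 3 of day 7 or replicate 1 of day 30 was absent (125, 116, 38 and 109 before adjustment). Signals near background on the 2 day 0 arrays limit every comparison with day 0.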
